A study of Mus musculus with 18 samples.

Results

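The genes described here are 32 regulators of pre-mRNA splicing, taken by symbol out of the 55487 genes of the deposited tables. They comprise 12 SR proteins (Srsf1 to Srsf7, Srsf9 to Srsf11, Tra2a and Tra2b), 12 hnRNP and other RNA-binding proteins (11 Hnrnp genes and Elavl1), 3 kinases of SR proteins (Clk1, Clk2 and Clk4) and 5 SR-related proteins (Luc7l, Rbm39, Son, Srrm1 and Srrm2). The 11 Hnrnp genes and Elavl1 are together called hnRNP genes below, although Elavl1 is not an Hnrnp gene. RNA was sequenced from alphaTC1, a murine alpha cell line, in 2 experiments with 18 libraries. In experiment 1, cells were transduced with an shRNA against Smndc1 (shSmndc1, n = 3) or with the empty vector (EV, n = 3) and collected 5 days later. In experiment 2, cells that received the shRNA and a RIP-mCherry reporter were sorted into reporter-positive cells (shSmndc1_RIP_pos, n = 4) and reporter-negative cells (shSmndc1_RIP_neg, n = 4), against empty-vector cells with the reporter (EV_RIP, n = 4). RIP commonly stands for the rat insulin promoter, so that mCherry marks cells in which an insulin promoter is active. The day of collection in experiment 2, and any sorting of EV_RIP cells, are left unstated by the labels. The labels name 1 cell line, 1 shRNA target and no rescue. It is not stated that replicates were separate cultures, so p-values measure only the spread between libraries, which may be technical.

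SMNDC1 is a splicing factor with a Tudor domain that takes part in spliceosome assembly. SR proteins bind exonic enhancers through RNA recognition motifs and use arginine- and serine-rich (RS) domains to recruit the splicing machinery, whereas hnRNP proteins coat nascent RNA and often oppose exon inclusion. CLK kinases phosphorylate RS domains, and SON and SRRM2 are core proteins of nuclear speckles, where splicing factors gather. Many genes of these families limit their own level by splicing in an exon with an early stop codon, which sends the transcript to nonsense-mediated decay (NMD).

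Library depth ranged from 8084574 counts (shSmndc1_RIP_neg replicate 3) to 103048766 counts (EV_RIP replicate 2). Smndc1 itself fell in shSmndc1 cells (log2 fold change -1.94 ± 0.13, adjusted p = 0.00145 by edgeR), with 10.4, 9.52 and 10.5 CPM (counts scaled to a common library total) against 41.9, 40.2 and 35.1 CPM in EV. It also fell in shSmndc1_RIP_pos cells (-1.15 ± 0.21, adjusted p = 0.00384). In the libraries labelled shSmndc1_RIP_neg it did not pass the test (-0.27 ± 0.20, adjusted p = 0.378), with 23.9, 43.4, 36.3 and 44.6 CPM against 37.6, 54.9, 39.3 and 46.3 CPM in EV_RIP. Several libraries stood apart. Rn7sk, a small nuclear RNA without a poly(A) tail, reached 161 and 45.4 CPM in shSmndc1_RIP_neg replicates 3 and 4, against 5.24 to 14.2 CPM in EV_RIP. Malat1, an RNA of nuclear speckles, had 1083 CPM in shSmndc1 replicate 3, against 184 to 478 CPM in EV. The mitochondrial share of counts was 0.587% in EV_RIP replicate 1 and 2.34% to 3.98% in the other EV_RIP libraries. Gcg, which encodes glucagon, averaged 7631 CPM in shSmndc1 against 5114 CPM in EV, and 15987 CPM in shSmndc1_RIP_pos and 9254 CPM in shSmndc1_RIP_neg against 9009 CPM in EV_RIP.

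All 32 regulators passed the filter on low counts in each comparison. On the deposited FPKM scale, Hnrnpa2b1, which binds nascent RNA and sorts RNA cargo, was the most abundant of them in each group, with 453 ± 145 FPKM in shSmndc1 and 655 ± 60.5 FPKM in EV (SD, n = 3 each). In experiment 2 it had 522 ± 67.0 FPKM in shSmndc1_RIP_pos, 481 ± 90.8 FPKM in shSmndc1_RIP_neg and 616 ± 75.0 FPKM in EV_RIP (SD, n = 4 each). Hnrnpa1, the best known splicing silencer of the family, came next in each group, with 498 ± 38.8 FPKM in EV_RIP. Both stood well above the following gene in EV_RIP, Hnrnph1 (209 ± 15.2 FPKM), which binds runs of guanines.

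The SR proteins with the highest levels in EV_RIP were Srsf3 (178 ± 14.2 FPKM), the smallest SR protein, Srsf2 (152 ± 12.3 FPKM) and Srsf5 (129.6 ± 26.9 FPKM). Srsf2 and Srsf5 differed by less than the SD of Srsf5, so their order is not resolved. SR-related genes ranged in EV_RIP from 25.4 ± 1.82 FPKM for Luc7l, a U1-associated protein, to 102 ± 16.9 FPKM for Rbm39, a coactivator that joins splicing and transcription. The kinases had 45.7 ± 10.9 FPKM for Clk1, 18.8 ± 2.91 FPKM for Clk4 and 14.7 ± 3.29 FPKM for Clk2. Hnrnpr was the lowest of the 32 in every group, with 6.81 ± 0.841 FPKM in EV_RIP. The gene length behind the deposited FPKM was not checked here, and the order of genes depends on it. Annotated exons cover 22199 bases in Hnrnpr (148 CPM and 6.81 FPKM in EV_RIP) and 7899 bases in Srsf3 (471 CPM and 178 FPKM). The length of all annotated exons therefore does not give both FPKM values.

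**Figure D1:**
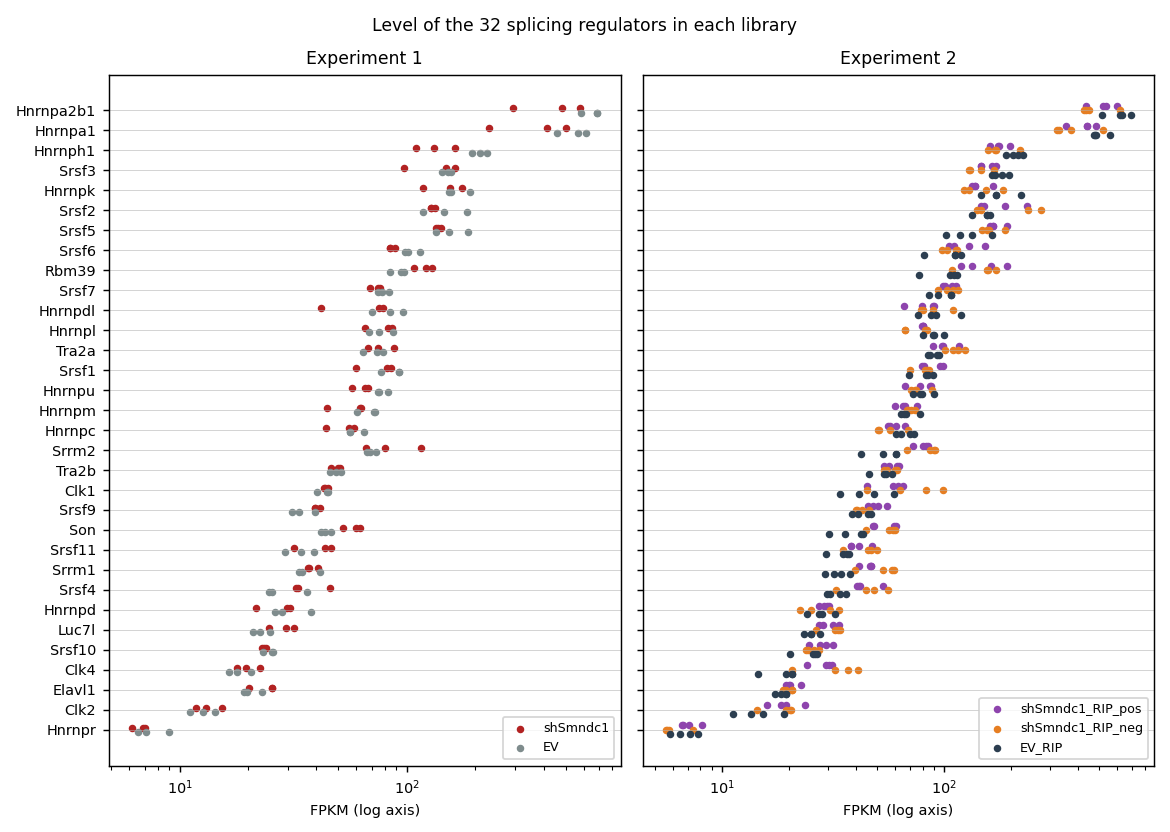
FPKM of each of the 32 genes in each library on a log axis, for shSmndc1 and EV (left) and for shSmndc1_RIP_pos, shSmndc1_RIP_neg and EV_RIP (right), ordered by the EV_RIP mean. Hnrnpa2b1 and Hnrnpa1 lead and Clk2 and Hnrnpr close the order of means in every group.

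The annotation of these genes was rich in transcripts that do not encode a full protein. In GENCODE M21, whose coordinates match the deposited ones for all 32 genes, 27 of 32 (84.4%) had at least 1 transcript of the NMD class. Of the 13724 protein-coding genes tested, 27.4% had one, and of the 7349 at or above the lowest of the 32 in EV_RIP, 31.3% had one. Retained-intron transcripts were annotated for 28 of 32 (87.5%), against 55.7% and 64.6% of those genes. By family, NMD transcripts were annotated for 11 of 12 SR protein genes, 8 of 12 hnRNP genes, all 3 kinases and all 5 SR-related genes. Transcripts were also more numerous, with a median of 11 per gene among the 32 and 5 over all protein-coding genes tested, so these shares are descriptions of the annotation. In 11 of the 32 genes an internal exon, which overlaps no exon of a protein-coding transcript of the gene, held the end of the reading frame of an NMD transcript. There were 18 such exons, and 9 of them were not a multiple of 3 in length.

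Some of these exons are shown as annotated examples of stretches in which the reading frame of an NMD transcript ends. They run 5′ to 3′ on the transcript strand from the first base of the exon to the stop codon, which is in capitals (GRCm38, GENCODE M21). The first 5 belong to SR proteins, and the other 3 to SR-related genes named in the comparisons. Rbm39 and Srrm2 have further such exons, and Srsf9, Srsf11 and Hnrnpl also have such exons, which are not printed. Tra2b has a longer version of its exon, of 397 bases, with the same printed stretch.
Srsf3 (exon 4 of 7 of its transcript, 456 bases, printed chr17:29039454-29039487, plus strand): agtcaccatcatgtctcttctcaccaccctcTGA
Srsf7 (exon 4 of 9 of its transcript, 460 bases, printed chr17:80205054-80205081, minus strand): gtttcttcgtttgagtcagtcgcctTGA
Tra2a (exon 2 of 9 of its transcript, 306 bases, printed chr6:49252965-49253108, minus strand): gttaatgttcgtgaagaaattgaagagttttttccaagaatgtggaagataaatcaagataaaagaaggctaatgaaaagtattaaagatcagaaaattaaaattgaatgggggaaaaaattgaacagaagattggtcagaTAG
Tra2b (exon 2 of 10 of its transcript, 276 bases, printed chr16:22259181-22259261, minus strand): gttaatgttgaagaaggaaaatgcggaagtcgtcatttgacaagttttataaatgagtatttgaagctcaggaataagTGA
Srsf4 (exon 2 of 6 of its transcript, 207 bases, printed chr4:131884276-131884390, plus strand): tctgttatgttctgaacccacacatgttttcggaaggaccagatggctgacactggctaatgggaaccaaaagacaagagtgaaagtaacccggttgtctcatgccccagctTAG
Srrm1 (exon 3 of 4 of its transcript, 282 bases, printed chr4:135345268-135345477, minus strand): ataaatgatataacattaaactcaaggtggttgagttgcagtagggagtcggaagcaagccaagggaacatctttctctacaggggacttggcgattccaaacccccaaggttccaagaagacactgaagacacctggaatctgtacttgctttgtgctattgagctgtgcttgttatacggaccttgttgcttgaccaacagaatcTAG
Srrm2 (exon 2 of 3 of its transcript, 261 bases, printed chr17:23811817-23811859, plus strand): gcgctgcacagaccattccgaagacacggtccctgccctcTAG
Rbm39 (exon 14 of 18 of its transcript, 51 bases, printed chr2:156152473-156152513, minus strand): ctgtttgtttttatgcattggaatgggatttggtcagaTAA
In Tra2a and Tra2b, paralogous splicing activators, the exon was number 2 of the transcript and its first 9 bases were identical. The stop codon ended 28 bases into the Srsf7 exon, 34 bases into that of Srsf3 and 43 bases into that of Srrm2. In Srrm1 it ended 210 bases into an exon of 282 bases. The deposited counts are per gene and sum over coding, NMD and retained-intron transcripts. Use of these exons was not analysed here, and a difference in counts does not say which transcript changed.

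The first comparison asks how Smndc1 knockdown moved these regulators in experiment 1. Hnrnph1 fell, and no other of the 32 passed the test. Hnrnph1 (chromosome 11, 50376990 to 50386528, plus strand) had 411, 333 and 282 CPM in shSmndc1 libraries, against 531, 566 and 491 CPM in EV libraries. The groups did not overlap, and the log2 fold change of -0.63 ± 0.16 (SE) passed the edgeR test with adjusted p = 0.0336. Over all 18202 genes tested, 7.22% were called higher and 7.5% lower (14.7% in all), so 0 of 32 higher and 1 of 32 lower are below both backgrounds. The call was lost in 4 of 10 alternatives, when any 1 EV library or shSmndc1 replicate 2 was left out (adjusted p = 0.0653 to 0.116). Without shSmndc1 replicate 3, which stood apart in Malat1, Hnrnph1 was at -0.51 (adjusted p = 0.0244). An unadjusted p under 0.05 was reached by 6 of the 32, against 32.5% of all genes.

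Son and Rbm39 came next. Son, which holds nuclear speckles together, had 585, 673 and 711 CPM in shSmndc1, against 523, 465 and 488 CPM in EV. Its groups did not overlap, yet the log2 fold change of 0.42 ± 0.13 gave adjusted p = 0.0666. Rbm39 had 387, 411 and 348 CPM in shSmndc1, against 311, 297 and 268 CPM in EV (0.39 ± 0.13, adjusted p = 0.0709). Its groups did not overlap either. DESeq2 called both higher (adjusted p = 0.0258 for Son and 0.0475 for Rbm39). Leaving out shSmndc1 replicate 3 brought Rbm39 (0.45, adjusted p = 0.0209) and Luc7l (0.42, adjusted p = 0.0309) past the threshold. Srrm2 had 591, 714 and 1048 CPM in shSmndc1, against 658, 593 and 617 CPM in EV (0.33 ± 0.20, adjusted p = 0.293), and its highest library was shSmndc1 replicate 3. Groups did not overlap for 4 of 32 genes in the higher direction and 4 in the lower, against backgrounds of 19.7% and 19.8%.

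By family, 10 of the 12 hnRNP genes had a negative log2 fold change (median -0.21), and all 5 SR-related genes a positive one (median 0.34). Over all genes tested, 49.8% were positive and 50.2% negative, with a median of -0.0029. SR proteins split into 5 positive and 7 negative (median -0.08), none called, from Srsf6 at -0.28 ± 0.12 to Srsf4 at 0.38 ± 0.19. The kinases had values of 0.04 ± 0.11 for Clk1, 0.09 ± 0.15 for Clk2 and 0.14 ± 0.14 for Clk4. Hnrnpa1 and Hnrnpa2b1 had log2 fold changes of -0.51 ± 0.26 and -0.52 ± 0.23, with adjusted p of 0.205 and 0.150. For Hnrnpa1 the 967, 803 and 454 CPM of shSmndc1 libraries overlapped the 1101, 1172 and 888 CPM of EV libraries, and its lowest value was that of shSmndc1 replicate 3. It is also the gene with most near-identical copies, 10 in number, which together held 9.54% as many counts as Hnrnpa1. How reads that match several copies were counted is not known, so its count is uncertain by an unknown amount.

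**Figure D2:**
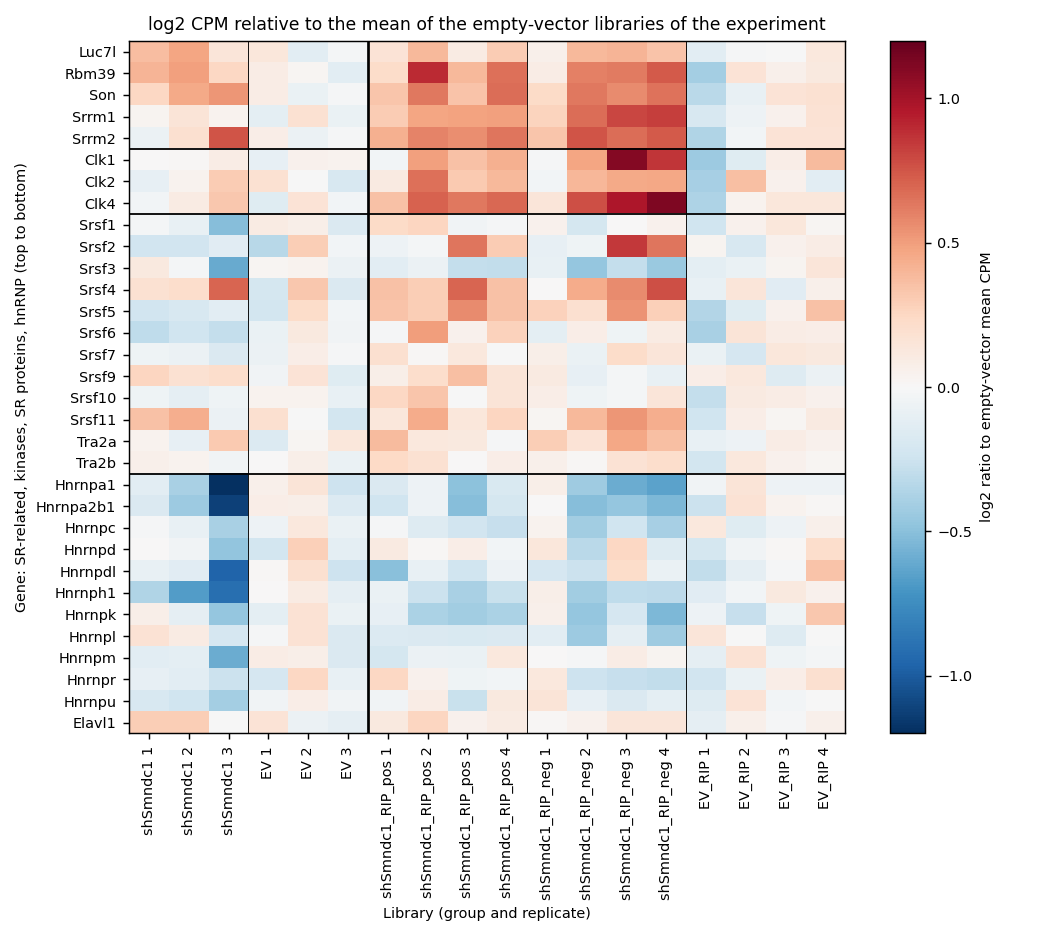
log2 ratio of CPM in each library (columns) to the mean CPM of the empty-vector libraries of the same experiment, for the 32 genes (rows) grouped as SR-related, kinases, SR proteins and hnRNP. SR-related rows are mostly above and hnRNP rows mostly below the empty-vector mean in shRNA libraries of both experiments.

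In experiment 2, 5 of the 32 regulators rose in reporter-positive cells and none fell. They were Srrm2, Son, Srrm1, Rbm39 and Clk4, so 4 of the 5 SR-related genes and 1 of the 3 kinases. Over 18897 genes tested, 8.47% were called higher and 8.92% lower in this comparison (17.4% in all).

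Srrm2 (chromosome 17, 23790532 to 23824741, plus strand) encodes a large RS-domain protein of speckles. It had 649, 733, 715 and 756 CPM in shSmndc1_RIP_pos, against 378, 474, 544 and 541 CPM in EV_RIP. The lowest reporter-positive library was above the highest control, and the log2 fold change of 0.56 ± 0.13 had edgeR adjusted p = 0.0127. This call held in all 18 alternatives.

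Son (chromosome 16, 91647506 to 91679221, plus strand) had 536, 659, 541 and 678 CPM in shSmndc1_RIP_pos, against 341, 402, 477 and 484 CPM in EV_RIP. The groups did not overlap (0.50 ± 0.14, adjusted p = 0.0251), and the call held in 15 of 18 alternatives. It was lost without EV_RIP replicate 1, shSmndc1_RIP_pos replicate 2 or shSmndc1_RIP_pos replicate 4 (adjusted p = 0.0635 to 0.0742).

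Srrm1 (chromosome 4, 135320484 to 135353321, minus strand), a coactivator that bridges SR proteins and snRNPs, had 170.1, 191, 191 and 193 CPM in shSmndc1_RIP_pos, against 119.8, 132, 142 and 155 CPM in EV_RIP. The groups did not overlap (0.44 ± 0.13, adjusted p = 0.0293). Rbm39 (chromosome 2, 156147239 to 156180238, minus strand) had 378, 604, 426 and 514 CPM in shSmndc1_RIP_pos, against 246, 364, 339 and 352 CPM in EV_RIP (0.56 ± 0.17, adjusted p = 0.0385). Reporter-positive replicate 1 was the lowest of its group for both genes and lay close to the highest control for Rbm39. Each call was lost in 6 of 18 alternatives (adjusted p up to 0.0780 for Srrm1 and 0.125 for Rbm39), among them those without EV_RIP replicate 1 or 3 or shSmndc1_RIP_pos replicate 2, 3 or 4.

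Clk4 (chromosome 11, 51261730 to 51281766, plus strand), a dual-specificity kinase of RS domains, had 49.8, 63.9, 60.6 and 62.8 CPM in shSmndc1_RIP_pos, against 30.1, 40.1, 43.0 and 42.9 CPM in EV_RIP. All 4 reporter-positive libraries were higher than each control (0.60 ± 0.18, adjusted p = 0.0352). The call was lost in 5 of 18 alternatives (adjusted p up to 0.0985), without EV_RIP replicate 1 or 3 or shSmndc1_RIP_pos replicate 2, 3 or 4. Clk1 (0.33 ± 0.22) and Clk2 (0.38 ± 0.17) did not pass, with adjusted p of 0.305 and 0.128.

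Among the SR proteins, 11 of 12 had a positive log2 fold change in reporter-positive cells (median 0.20), none called. Over all genes 50.1% were positive and 49.9% negative. Srsf4 was nearest to the threshold with 94.5, 91.0, 121 and 94.9 CPM in shSmndc1_RIP_pos, against 69.9, 82.0, 67.6 and 77.2 CPM in EV_RIP (0.43 ± 0.15, adjusted p = 0.0548). Srsf5 followed at 0.39 ± 0.14 (adjusted p = 0.0595), and Srsf3 was the only SR protein below 0 (-0.19 ± 0.11). Of the 12 hnRNP genes 9 were negative (median -0.17), from Hnrnpk at -0.31 ± 0.15 to Elavl1 at 0.13 ± 0.09, and none passed. Hnrnph1 had 502, 443, 405 and 440.3 CPM in shSmndc1_RIP_pos, against 482, 517, 574 and 548 CPM in EV_RIP (-0.24 ± 0.12, adjusted p = 0.155). Groups did not overlap for 7 of 32 genes in the higher direction and for 1, Hnrnpl, in the lower, with 11.7% of all genes in each. An unadjusted p under 0.05 was reached by 9 of the 32 and 33.9% of all genes.

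**Figure D3:**
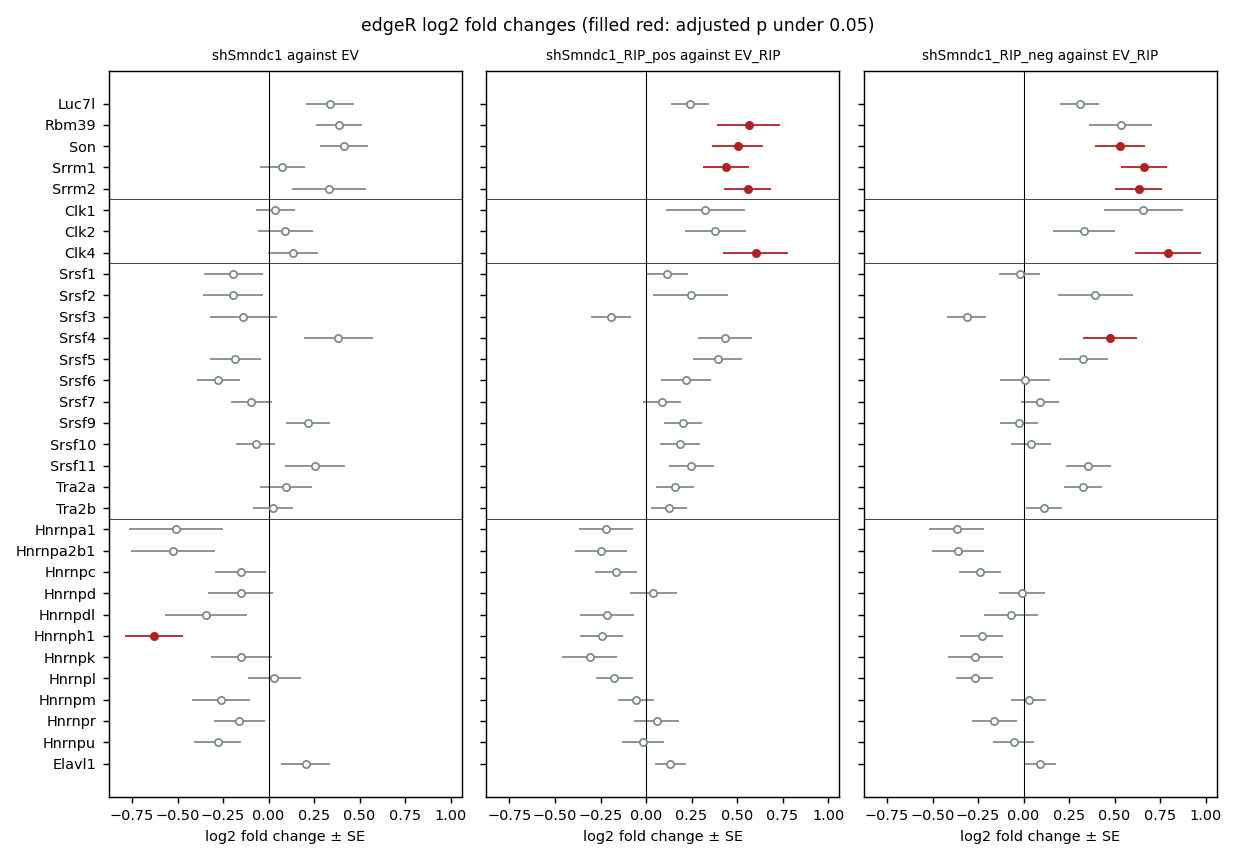
edgeR log2 fold changes with their SE for the 32 genes in shSmndc1 against EV, shSmndc1_RIP_pos against EV_RIP and shSmndc1_RIP_neg against EV_RIP, with filled red points for an adjusted p under 0.05. The called points are Hnrnph1 in shSmndc1 and, in experiment 2, SR-related genes, Clk4 and, in reporter-negative cells, Srsf4.

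Promoters of the 5 genes that rose in reporter-positive cells are shown because these genes rose in the same libraries. The 250 bases before the RefSeq start of each gene (GRCm38.p6) are given 5′ to 3′ in the direction of transcription, with matches to the searched motifs on either strand in capitals.
Srrm2 (chr17:23802937-23803186, plus strand): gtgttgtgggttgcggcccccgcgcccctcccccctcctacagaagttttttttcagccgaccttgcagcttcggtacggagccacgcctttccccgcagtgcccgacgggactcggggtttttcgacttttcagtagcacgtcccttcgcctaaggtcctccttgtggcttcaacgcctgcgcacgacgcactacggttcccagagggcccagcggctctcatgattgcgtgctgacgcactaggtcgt
Son (chr16:91647574-91647823, plus strand): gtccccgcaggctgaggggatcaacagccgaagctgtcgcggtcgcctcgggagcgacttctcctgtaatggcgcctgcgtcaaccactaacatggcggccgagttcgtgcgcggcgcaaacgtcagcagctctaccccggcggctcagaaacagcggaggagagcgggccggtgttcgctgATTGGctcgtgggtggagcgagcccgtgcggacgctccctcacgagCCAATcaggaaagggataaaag
Srrm1 (chr4:135353147-135353396, minus strand): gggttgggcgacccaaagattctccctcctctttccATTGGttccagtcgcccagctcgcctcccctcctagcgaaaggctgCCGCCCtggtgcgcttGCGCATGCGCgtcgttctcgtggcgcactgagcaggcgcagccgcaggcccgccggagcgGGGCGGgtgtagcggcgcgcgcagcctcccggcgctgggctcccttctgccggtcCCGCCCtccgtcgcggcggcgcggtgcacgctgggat
Clk4 (chr11:51262864-51263113, plus strand): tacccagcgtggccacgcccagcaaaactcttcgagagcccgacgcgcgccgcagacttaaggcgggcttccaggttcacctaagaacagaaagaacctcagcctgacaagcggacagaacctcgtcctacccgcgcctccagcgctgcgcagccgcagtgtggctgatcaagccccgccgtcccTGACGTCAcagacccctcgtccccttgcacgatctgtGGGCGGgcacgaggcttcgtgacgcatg
Rbm39 (chr2:156180239-156180488, minus strand): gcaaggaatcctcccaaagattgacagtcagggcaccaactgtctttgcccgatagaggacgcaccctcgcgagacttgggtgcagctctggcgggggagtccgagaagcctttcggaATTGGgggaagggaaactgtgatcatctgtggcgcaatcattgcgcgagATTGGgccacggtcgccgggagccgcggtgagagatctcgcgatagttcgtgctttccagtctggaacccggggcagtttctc
The motifs were searched on both strands: the CCAAT box by its letters CCAAT, the GC box as GGGCGG, the ETS motif as CCGGAAG, the CRE as TGACGTCA, the TATA box as TATAAA, the E-box as CACGTG, and longer motifs of NRF1, ZBTB33 and YY1. Son and Rbm39 each held 2 CCAAT boxes, at -68 and -22 from the start in Son and at -132 and -83 in Rbm39. Srrm1 held 1 CCAAT box, 3 GC boxes and the NRF1 motif, and Clk4 the CRE letters at -65 and a GC box at -28. In Srrm2 none of these motifs occurred in the window, and in the other printed promoters no matches overlapped. No motif searched was therefore common to the 5 promoters. Of the 30 regulators with a promoter in the RefSeq table, 16 (53.3%) held CCAAT and 20 (66.7%) held GGGCGG, against 37.4% and 58.6% of 10823 promoters of protein-coding genes tested. ETS letters were in 16.7% of the 30 against 13.8%, CRE in 6.67% against 2.68%, TATA in 10% against 6.45%, the E-box in 6.67% against 8.01% and NRF1 in 3.33% against 1.61%. ZBTB33 and YY1 motifs were in none of the 30 and in 0.841% and 0.416% of the 10823. The median number of CpG dinucleotides in the window was 24 for the 30 regulators and 15 for the 10823 promoters.

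Reporter-negative cells, compared with the same EV_RIP libraries, also had 5 of 32 regulators higher and none lower, against 8.17% and 5.69% of all genes tested (13.9% in all). These were Srrm1, Srrm2, Clk4, Son and Srsf4. Both comparisons use the same controls, whose values are given above, so they are not independent observations. Srrm1 had 165, 219, 239.8 and 245 CPM in shSmndc1_RIP_neg (0.66 ± 0.13, edgeR adjusted p = 0.0116). Srrm2 had 609, 816, 772 and 805 CPM in shSmndc1_RIP_neg (0.63 ± 0.13, adjusted p = 0.0136). Clk4 had 43.2, 67.0, 76.3 and 84.7 CPM in shSmndc1_RIP_neg (0.79 ± 0.18, adjusted p = 0.0173). For these 3 genes the groups did not overlap, although replicate 1 was the lowest of the reporter-negative libraries and came close to the highest EV_RIP library for Clk4. Son had 500.4, 662, 631 and 669 CPM in shSmndc1_RIP_neg, again above each control (0.53 ± 0.14, adjusted p = 0.0249). Rbm39, with 347, 495, 499.6 and 541 CPM in shSmndc1_RIP_neg, did not pass (0.53 ± 0.17, adjusted p = 0.0529), and its replicate 1 lay inside the control range.

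Srsf4 (chromosome 4, 131873617 to 131901706, plus strand) had 74.2, 101, 110.2 and 127 CPM in shSmndc1_RIP_neg, against 69.9, 82.0, 67.6 and 77.2 CPM in EV_RIP. Replicate 1 lay inside the control range (0.47 ± 0.15, adjusted p = 0.0467), and the call was lost in 12 of 18 alternatives (adjusted p up to 0.503). On 43% of its exonic bases Srsf4 overlaps the antisense gene Gm12992, which was at 0.46 ± 0.16, adjusted p = 0.0659 in the same comparison. No source used here states whether counting used strand, so the Srsf4 value is uncertain. The other SR proteins did not pass, from Srsf3 at -0.31 ± 0.11 to Srsf2 at 0.39 ± 0.21, whose exons overlap genes of the opposite strand on 25.3% of their bases. Clk1 had 81.8, 115, 178 and 149.8 CPM in shSmndc1_RIP_neg, against 61.2, 74.7, 87.5 and 108 CPM in EV_RIP (0.66 ± 0.22, adjusted p = 0.0567).

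In reporter-negative cells 9 of 12 SR proteins (7 of 12 without the filter on low counts) and all 8 kinases and SR-related genes had a positive log2 fold change, beside 49.2% of all genes. Of the 12 hnRNP genes 10 were negative (median -0.19), beside 50.8% of all genes, and none passed. Groups did not overlap for 5 of 32 genes in the higher direction and 0 in the lower, against 7.24% and 7.2% of all genes. An unadjusted p under 0.05 was reached by 15 of the 32 and 33.2% of all genes.

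**Figure D4:**
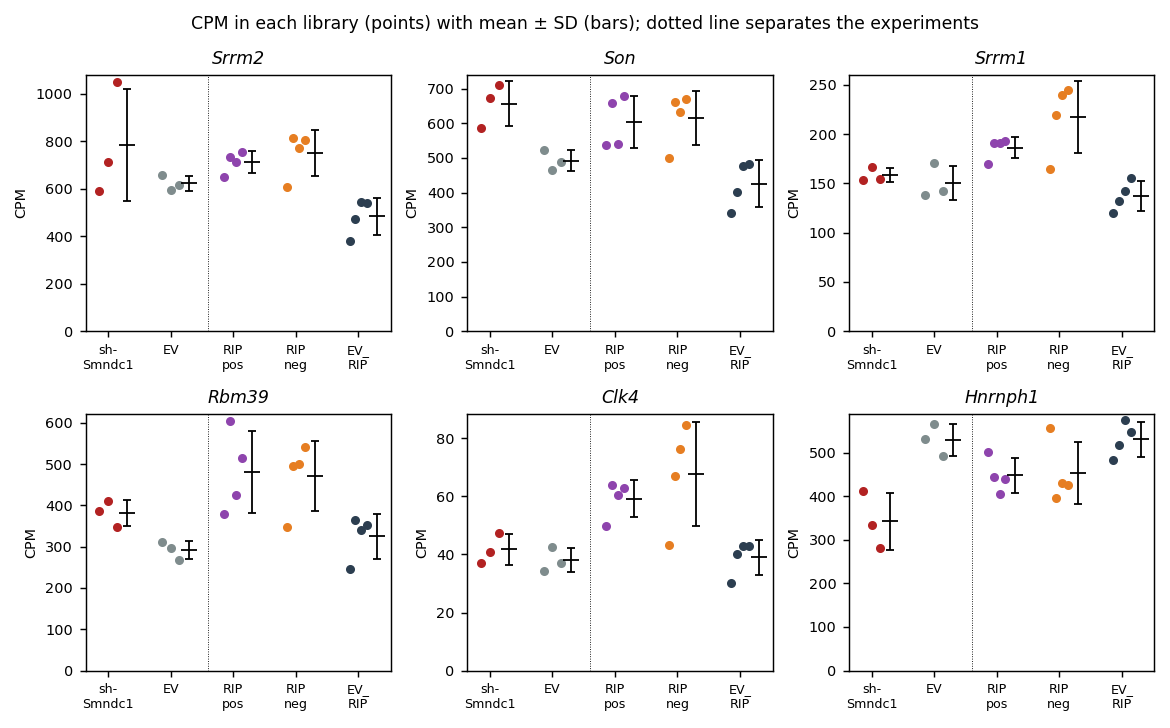
CPM of Srrm2, Son, Srrm1, Rbm39, Clk4 and Hnrnph1 in each library (points), with mean and SD of the group (bars), for shSmndc1 (n = 3), EV (n = 3), shSmndc1_RIP_pos, shSmndc1_RIP_neg and EV_RIP (n = 4 each). In experiment 2 each reporter-positive library is above each EV_RIP library for the first 5 genes, and Hnrnph1 is below EV in each shSmndc1 library.

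Single libraries decided how many regulators were called in experiment 2. Without shSmndc1_RIP_neg replicate 1, 17 of 32 were called in reporter-negative cells, 10 higher and 7 lower. Over all 19615 genes tested in that fit, 15.5% were called higher and 14.2% lower (29.7% in all), so the background was also above the 13.9% of the fit with all libraries. The 7 lower were Hnrnpa1 (-0.55), Hnrnpa2b1 (-0.51), Srsf3 (-0.40), Hnrnpk (-0.40), Hnrnpc (-0.36), Hnrnph1 (-0.35) and Hnrnpl (-0.33), with adjusted p from 0.00400 to 0.0475. The higher ones included Clk1 (0.83), Rbm39 (0.65), Srsf11 (0.45), Luc7l (0.38) and Tra2a (0.33) beside the 5 named above. Without shSmndc1_RIP_neg replicate 4 none was called, without replicate 2 there were 2 and without replicate 3 there were 3. Leaving out replicates 3 and 4 together, the libraries with most Rn7sk, left 0 of 32 called and 4 of all genes. Only replicates 1 and 2 of shSmndc1_RIP_neg remained in that fit, so fewer libraries and Rn7sk content cannot be told apart. The log2 fold changes then were 0.48 for Srrm1, 0.55 for Srrm2, 0.49 for Clk4, 0.44 for Son and 0.24 for Srsf4. In reporter-positive cells, 1 of 32 (Srrm2) was called without EV_RIP replicate 1, the library with the low mitochondrial share, and likewise without shSmndc1_RIP_pos replicate 2 or 4. Son and Srrm2 were called there without EV_RIP replicate 3 or shSmndc1_RIP_pos replicate 3. In reporter-negative cells Srrm1 and Srrm2 were called without EV_RIP replicate 1.

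Reporter-positive and reporter-negative cells were next set against each other. Smndc1 itself was at -0.89 ± 0.21 in this comparison (unadjusted p = 0.000656, adjusted p = 0.127 by edgeR). Reporter state and the level of Smndc1 can therefore not be told apart here. No regulator passed in the unpaired edgeR fit, in which 0 of 18897 genes passed and 12.2% had an unadjusted p under 0.05 (315 genes were called by DESeq2). Of the 32, 1 had an unadjusted p under 0.05, Srsf9, an SR protein with a short RS domain. It had 52.9, 58.2, 64.5 and 56.0 CPM in shSmndc1_RIP_pos, against 54.1, 46.9, 49.6 and 47.2 CPM in shSmndc1_RIP_neg (0.23 ± 0.10, adjusted p = 0.394). Hnrnpr had 176, 153, 142 and 145 CPM in shSmndc1_RIP_pos, against 162, 125, 122 and 120.5 CPM in shSmndc1_RIP_neg (0.22 ± 0.12, adjusted p = 0.496). Both genes overlapped between the groups through replicate 1 of shSmndc1_RIP_neg. Srrm1, with the libraries given above, was at -0.22 ± 0.13 (adjusted p = 0.498). Log2 differences ran from -0.33 ± 0.22 for Clk1 to 0.23 ± 0.10 for Srsf9, 17 positive and 15 negative, beside 48.5% and 51.5% of all genes. No regulator had groups without overlap, against 3.33% of all genes in the higher and 3.25% in the lower direction.

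Same-numbered reporter-positive and reporter-negative libraries deviated together, so a paired edgeR fit is given too. It called 8.43% of 17994 genes (1517) and again 0 of the 32. An unadjusted p under 0.05 was reached by 5 of the 32 and 24.8% of all genes. These were Hnrnpr (0.23 ± 0.08, adjusted p = 0.104), Clk1 (-0.29 ± 0.12, adjusted p = 0.140), Srsf9 (0.22 ± 0.10, adjusted p = 0.163), Srrm1 (-0.20 ± 0.09, adjusted p = 0.174) and Srsf6 (0.20 ± 0.09, adjusted p = 0.180). Missing the threshold does not show that the sorted populations are alike in these genes.

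The effect of the shRNA in experiment 1 was compared with that in reporter-positive cells by an interaction term over 18 libraries. None of the 32 passed, nor did any of 20036 genes by edgeR (4.3% had an unadjusted p under 0.05, and DESeq2 called 3 genes). Srsf5 and Srsf6 had an unadjusted p under 0.05. Srsf5 had 224, 229 and 239 CPM in shSmndc1 against 224, 306 and 256 CPM in EV. In experiment 2 it had 275, 266, 320.2 and 276 CPM in shSmndc1_RIP_pos, against 169.8, 196, 225 and 276 CPM in EV_RIP. The effect was -0.18 ± 0.14 in experiment 1 and 0.39 ± 0.14 in reporter-positive cells, a difference of -0.57 ± 0.20 (adjusted p = 0.998). Srsf6 had 314, 329 and 318 CPM in shSmndc1 against 366, 421 and 376 CPM in EV. In experiment 2 it had 392, 562, 410.3 and 479 CPM in shSmndc1_RIP_pos, against 302, 442, 421 and 419 CPM in EV_RIP. Its groups did not overlap in experiment 1 and overlapped in experiment 2 (-0.28 ± 0.12 and 0.22 ± 0.14, difference -0.48 ± 0.19, adjusted p = 0.998). Srrm1 followed, at 0.08 ± 0.12 in shSmndc1 and 0.44 ± 0.13 in shSmndc1_RIP_pos (difference -0.35 ± 0.18, adjusted p = 0.998). In all, 8 differences were positive and 24 negative, beside 51.0% and 49.0% of all genes. The experiments also differ in sorting and reporter, which cannot be told apart here.

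Summed FPKM per family show how the balance between SR-related and hnRNP transcripts varied by library. The 5 SR-related genes summed to 307, 341 and 346 FPKM in shSmndc1 libraries, against 276, 266 and 254 FPKM in EV libraries. The 12 hnRNP genes summed to 1832, 1590.0 and 1054 FPKM in shSmndc1, against 2037, 2187 and 1780.0 FPKM in EV. Hnrnpa2b1 (mean 453 FPKM in shSmndc1 and 655 FPKM in EV) and Hnrnpa1 (382 and 547 FPKM) weigh most in this sum. Neither of these genes was called. The ratio of the SR-related to the hnRNP sum was 0.168, 0.215 and 0.329 in shSmndc1, against 0.135, 0.121 and 0.143 in EV. In experiment 1 the sums thus lay apart in the SR-related genes and overlapped in the hnRNP genes. In experiment 2 the ratio was 0.178, 0.226, 0.226 and 0.223 in shSmndc1_RIP_pos, 0.144, 0.266, 0.252 and 0.286 in shSmndc1_RIP_neg, and 0.113, 0.127, 0.139 and 0.138 in EV_RIP. Each shRNA library had a higher ratio than each empty-vector library of its experiment, shSmndc1_RIP_neg replicate 1 by the smallest margin. The families were formed with earlier results known, so no test is given. In these bulk samples fewer cells of a type and less RNA per cell cannot be told apart.

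Other measures of the same libraries are given beside these results. Malat1 rose in shSmndc1_RIP_pos (1.33 ± 0.28, adjusted p = 0.00779) and in shSmndc1_RIP_neg (1.49 ± 0.28, adjusted p = 0.0112), with 287 to 669.6 CPM and 449.9 to 688 CPM against 109 to 286 CPM in EV_RIP. Rn7sk was called higher in shSmndc1_RIP_neg (2.40 ± 0.72, adjusted p = 0.0412 by edgeR), with 4.53, 18.6, 161 and 45.4 CPM. Its replicate 1 there lay below the EV_RIP range of 5.24 to 14.2 CPM. In shSmndc1_RIP_pos Rn7sk did not pass (-1.51 ± 0.73, adjusted p = 0.158 by edgeR). In experiment 1 Malat1 did not pass (0.47 ± 0.61, adjusted p = 0.627), and replicate 3 of shSmndc1 had the highest Malat1, the highest ratio and the highest mitochondrial share (4.76%). Summed over 5 endothelial markers, levels were 1.52 to 3.79 CPM in shSmndc1_RIP_pos and 2.33 to 5.89 CPM in shSmndc1_RIP_neg. EV_RIP had 1.13 to 1.91 CPM. Pecam1 and Esam made up most of the difference. Pecam1 averaged 1.64 CPM in shSmndc1_RIP_pos and 3.25 CPM in shSmndc1_RIP_neg against 1.04 CPM in EV_RIP. Esam averaged 0.594 and 1.13 CPM against 0.115 CPM. Cdh5 was at or below 0.201 CPM, and Kdr was lower in shSmndc1_RIP_neg (0.132 against 0.199 CPM). Summed over 5 leukocyte markers, levels were 20.1 to 24.5 CPM in shSmndc1_RIP_pos and 20.9 to 30.2 CPM in shSmndc1_RIP_neg. EV_RIP had 15.5 to 19.4 CPM. Ptprc was at or below 0.481 CPM, and Cd68 and Csf1r made up most of the sum. Cd68 averaged 10.5 CPM in shSmndc1_RIP_pos and 13.6 CPM in shSmndc1_RIP_neg against 7.55 CPM in EV_RIP. Csf1r averaged 11.55 and 11.999 CPM against 10.01 CPM. In experiment 1 the leukocyte sum was 23.5 to 28.0 CPM in shSmndc1 against 16.7 to 24.6 CPM in EV. There Csf1r was higher in shSmndc1 (mean 17.5 against 11.5 CPM in EV) and Cd68 lower (8.32 against 9.62 CPM). Summed fibroblast markers (5, Lum at 0 counts throughout) were 6.98 to 11.3 CPM in shSmndc1_RIP_pos and 3.32 to 7.09 CPM in shSmndc1_RIP_neg, against 2.77 to 9.47 CPM in EV_RIP. Summed acinar and duct markers (6, Ptf1a at 0 counts throughout) were 21 to 25.0 CPM in shSmndc1_RIP_pos and 17.0 to 25.1 CPM in shSmndc1_RIP_neg, against 17.9 to 23.4 CPM in EV_RIP. Summed over the alpha cell markers, levels were 15822 to 20904 CPM in shSmndc1_RIP_pos and 9520.2 to 13904 CPM in shSmndc1_RIP_neg, against 9456 to 13191 CPM in EV_RIP, so the reporter-positive libraries lay above both other groups. In experiment 1 that sum was 7695 to 10632 CPM in shSmndc1 against 5798 to 9857 CPM in EV. Summed histone genes, whose transcripts mostly lack a poly(A) tail, had 10.1 CPM in each of shSmndc1_RIP_neg replicates 3 and 4, against 2.22 to 5.11 CPM in EV_RIP. The part of these measures in the results was not tested.

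**Figure D5:**
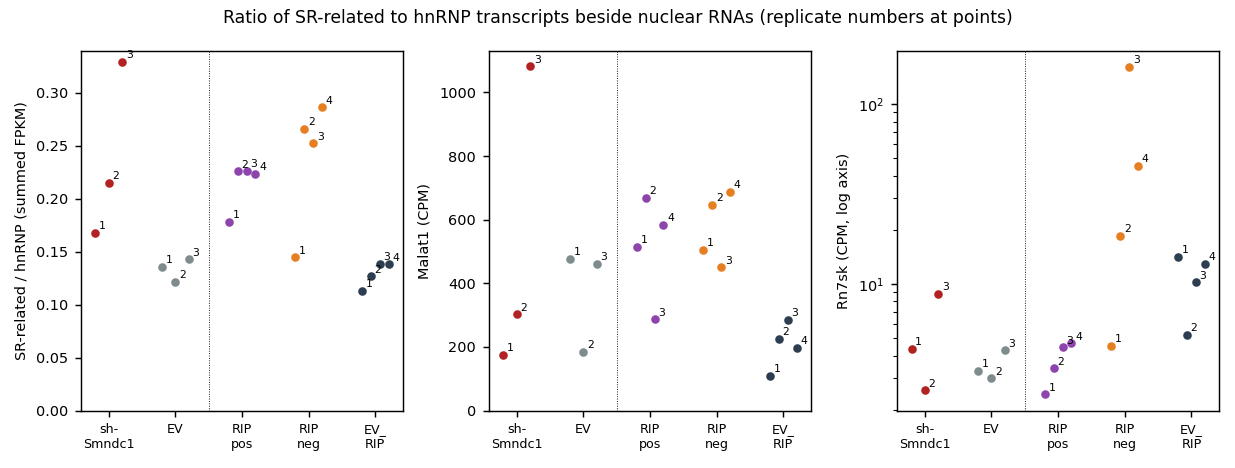
Ratio of summed FPKM of the 5 SR-related genes to that of the 12 hnRNP genes (Elavl1 included), Malat1 in CPM and Rn7sk in CPM (log axis) in each library, with replicate numbers at the points. Every shRNA library exceeds the empty-vector libraries of its experiment in the ratio, and Rn7sk is highest in shSmndc1_RIP_neg replicates 3 and 4.

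Other genes of the same machinery were read from 3 further lists. Of 11 other kinases and importers of SR and hnRNP proteins, none was called higher, and 1 was called lower in shSmndc1, 1 in shSmndc1_RIP_pos and 0 in shSmndc1_RIP_neg. Over all genes the lower calls were 7.5%, 8.92% and 5.69% in the same comparisons and the higher calls 7.22%, 8.47% and 8.17%, and nothing particular to this list is read from its counts. Srpk2, a cytoplasmic SR protein kinase, fell in shSmndc1, with 98.5 ± 2.93 CPM against 147 ± 11.5 CPM in EV (SD, n = 3 each, log2 fold change -0.57 ± 0.11, adjusted p = 0.0159 by edgeR). Tnpo1, an importin of hnRNP A1, fell in shSmndc1_RIP_pos, with 167 ± 35.5 CPM against 244 ± 53.2 CPM in EV_RIP (SD, n = 4 each, log2 fold change -0.54 ± 0.17, adjusted p = 0.0393 by edgeR).

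Of 22 other hnRNP and related genes, 1 was lower in shSmndc1, 2 in shSmndc1_RIP_pos and 3 in shSmndc1_RIP_neg, with none higher. Over all genes 7.5%, 8.92% and 5.69% were called lower in these comparisons, so the counts in shSmndc1 and shSmndc1_RIP_pos are near or below the background. Taf15, an RNA-binding protein, fell in shSmndc1 (-0.71 ± 0.14, adjusted p = 0.0160). Raly, an hnRNP of the C family, averaged 269 ± 14.5 CPM in shSmndc1_RIP_pos, 267 ± 15.3 CPM in shSmndc1_RIP_neg and 369 ± 50.5 CPM in EV_RIP (SD, n = 4 each). It fell in both comparisons with these shared controls (-0.46 ± 0.11, adjusted p = 0.0120 in shSmndc1_RIP_pos and -0.47 ± 0.11, adjusted p = 0.0167 in shSmndc1_RIP_neg). Nono, a paraspeckle protein, fell too (-0.39 ± 0.10, adjusted p = 0.0171 in shSmndc1_RIP_pos and -0.32 ± 0.10, adjusted p = 0.0430 in shSmndc1_RIP_neg). Rbmx fell in shSmndc1_RIP_neg (-0.38 ± 0.10, adjusted p = 0.0312).

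Of 20 other SR-related and RS-domain genes, 3 were higher and 2 lower in shSmndc1_RIP_pos, 3 higher in shSmndc1_RIP_neg, and 1 higher and 2 lower among the 19 tested in shSmndc1. The shares over all genes were 8.47% higher and 8.92% lower in shSmndc1_RIP_pos, 8.17% higher in shSmndc1_RIP_neg, and 7.22% higher and 7.5% lower in shSmndc1. The 2 lower calls in shSmndc1_RIP_pos and the calls of both directions in shSmndc1 are therefore near the background. Sfswap, a splicing regulator with SURP domains, rose in shSmndc1 (0.64 ± 0.12, adjusted p = 0.0155), in shSmndc1_RIP_pos (0.50 ± 0.16, adjusted p = 0.0451) and in shSmndc1_RIP_neg (0.70 ± 0.16, adjusted p = 0.0174). Pnn, a partner of the exon junction complex, rose in shSmndc1_RIP_pos (0.55 ± 0.14, adjusted p = 0.0191) and in shSmndc1_RIP_neg (0.52 ± 0.14, adjusted p = 0.0310). Rbm5 and Rbm10, related regulators of exon choice, fell in shSmndc1 (-0.68 ± 0.12, adjusted p = 0.0111 for Rbm5 and -0.38 ± 0.11, adjusted p = 0.0468 for Rbm10). They also fell in shSmndc1_RIP_pos (-0.34 ± 0.09, adjusted p = 0.0220 for Rbm5 and -0.35 ± 0.09, adjusted p = 0.0160 for Rbm10). Scaf4 rose in shSmndc1_RIP_neg (0.79 ± 0.21, adjusted p = 0.0287). Srsf12 passed in shSmndc1_RIP_pos (2.34 ± 0.66, adjusted p = 0.0278) at very low levels, 0.279 ± 0.0919 CPM against 0.0510 ± 0.0437 CPM in EV_RIP (SD, n = 4 each).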

How the data were processed

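Poly(A) RNA libraries were made with a stranded kit and sequenced as paired ends of 75 bases, per the labels' protocols. STAR 2.7.5a, Picard 2.19.2, DESeq2 1.30.0 and GRCm38 are named in the submitters' processing notes; which program counted the reads, and whether by strand, is not given in the sources used here. The authors deposited raw counts per gene and FPKM. Within each gene, FPKM were proportional to counts divided by a size factor of each library (largest relative deviation 5.16e-14). The gene length used for them was not checked. FPKM were used for levels between genes. Raw counts were tested with edgeR 4.0.16 (R 4.3.3; filterByExpr, TMM, quasi-likelihood test, Benjamini-Hochberg over all genes tested, threshold 0.05), experiment 1 and experiment 2 separately, and checked on simulated data. CPM are TMM-scaled. DESeq2 1.42.0, other scaling, no filter, a replicate block, 2-group fits and leaving out each library were alternatives; leaving out shSmndc1_RIP_neg replicates 3 and 4 together was added after seeing the data. Same-numbered reporter-positive and reporter-negative libraries correlated in their deviations from group means (0.620, 0.355, 0.136 and 0.311), so they were taken as paired. Between different numbers of these groups the highest correlation was 0.281. Near-identical copies were transcripts matching a coding sequence at 95% identity over 150 bases (BLAST 2.17.0). Promoters come from RefSeq and exons from GENCODE M21. Members and gene lists were chosen with earlier results of these data known. Every member past the threshold is described with its values, at most 8 per comparison; where fewer than 3 passed, the 3 with the smallest p are given.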

Additional observations from a re-analysis of the deposited data

Results flagged for a closer look

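Of 96 sets of 1 gene in 1 group of 4 libraries, 10 held a library far from the other 3; chance flags about 1 in 20 groups. In shSmndc1_RIP_neg, replicate 1 was the highest for Hnrnpa2b1 (1519.6 CPM, the others at 1042 to 1094 CPM) and Hnrnpr (162 CPM, the others at 120.5 to 125 CPM) and the lowest for Clk2 (31.3 CPM, the others at 42.2 to 44.2 CPM). In shSmndc1_RIP_pos, replicate 1 was the highest for Hnrnpk (689 CPM, the others at 553 to 567 CPM) and the lowest for Srrm1 (170.1 CPM, the others at 191 to 193 CPM). Replicate 3 of that group was the highest for Srsf4 (121 CPM, the others at 91.0 to 94.9 CPM) and Srsf5 (320.2 CPM, the others at 266 to 276 CPM). In EV_RIP, replicate 1 was the lowest for Srsf6 (302 CPM, the others at 419 to 442 CPM) and Srsf10 (119 CPM, the others at 151 to 157 CPM), and replicate 2 the highest for Hnrnpa1 (1073 CPM, the others at 922 to 933 CPM).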

How the results depend on the processing

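For the genes called or of smallest p in each comparison, 281 values under other settings kept their side of the threshold. Another 49 lost it, 3 gained it (Rbm39 and Son in shSmndc1) and 0 changed sign. The 281 include genes not called in the main fit, such as Srsf5 and Srsf6 in the interaction (22 each). Such genes had no call to lose, so the 49 losses all fall on called genes. Genes outside this tally that gained a call, such as Luc7l and Clk1, count in the numbers of the 32 below. Leaving out 1 library moved the number of the 32 called to 0 to 3 in shSmndc1 against EV, 1 to 7 in shSmndc1_RIP_pos and 0 to 17 in shSmndc1_RIP_neg against EV_RIP, and 0 in the other 2 comparisons. Over all genes it gave 181 (without EV replicate 3) to 3336, 1258 to 4246 and 159 to 5831 calls, and 0 to 517 for reporter-positive against reporter-negative cells, with 0 in each case for the interaction. In shSmndc1 against EV, 3 of the 32 were called without the filter and 3 by DESeq2, with 4165 genes called without the filter. In shSmndc1_RIP_neg, DESeq2 called 10 of the 32 and 4019 genes, the replicate block 13 and 4597, a fit of the 2 groups 1289 genes, and the fit without replicates 3 and 4 together 0 and 4 genes. In shSmndc1_RIP_pos the replicate block called 8 of the 32 and 5079 genes. For EV and EV_RIP, same-number correlations with shRNA libraries ran from -0.288 to 0.487. They were 0.258 to 0.487 for EV_RIP replicates 1 and 2 and negative for EV_RIP replicates 3 and 4, so these numbers were not taken as paired. Reporter-positive against reporter-negative cells gave 150 genes without the filter, 315 by DESeq2, 78 with the replicate block over 3 groups and 1517 with it over the sorted groups. The interaction gave 5, 3 and 1 genes without the filter, by DESeq2 and with the replicate block. The causes were not tested. In DESeq2 the median over all genes of shSmndc1_RIP_neg against EV_RIP was 0.19; SR-related genes stayed positive in 5 of 5 under each scaling in the 3 comparisons with empty vector. SR proteins in shSmndc1_RIP_neg were 9 positive and 3 negative by edgeR with the filter and by DESeq2, and 7 and 5 without the filter; by DESeq2 their median of 0.11 lay below that of all genes. Depth limits shSmndc1_RIP_neg replicate 3 most (8084574 counts).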
